A study of Homo sapiens with 12 samples.

Results

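TIMP1 KO 1 and TIMP1 KO 2 are a pair of clonal lines of MIA PaCa-2, an established human pancreatic carcinoma cell line, in which exon 4 of TIMP1 was targeted by CRISPR with guide RNAs to separate sites. The clones carry the same intended lesion and were compared directly with each other, 3 libraries against 3, which are 6 of the 12 bulk RNA-seq libraries of the series. The other 6 libraries are unmodified cells (WT) and a line that went through editing and acquired only a silent change in TIMP1 (CRISPR Control), 3 of each, and they are given beside the clones as the background. All lines were cultured in RPMI with serum and harvested before confluence, with no treatment. Genes were compared where their normalised count, averaged over all 12 libraries, reached 10, which 15987 of the 63086 genes in the table did. A gene that was high in 1 line alone could reach this minimum through that line. Each knockout is 1 clone, so the lesion and everything else that sets one clone apart cannot be told apart here, and nothing states that the 3 biological replicates of a line came from separate cultures. P-values therefore measure the spread between these libraries.

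TIMP-1 is a secreted protein that inhibits matrix metalloproteinases and also acts as a cytokine through cell-surface partners such as CD63. Cells answer foreign or misplaced nucleic acid through sensors that switch on type I and type III interferons. Interferons signal through JAK kinases to STAT proteins and IRF9, which bind interferon-stimulated response elements (ISREs) in the promoters of their target genes. A clone grown from a single edited cell also keeps whatever expression state and chromosome set that cell had.

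The clones were sequenced to between 28192201 and 35646216 reads in genes, and all 12 libraries to between 26908701 and 36093563. Values are normalised counts, read counts divided by 1 size factor per library, and 1 read was worth between 0.828 and 1.19 normalised counts. All 8 epithelial or ductal markers were abundant enough to compare, of which 2 were higher and 4 lower in KO 2, KRT8 at 135670 in KO 1 and 96385 in KO 2 on average. VIM stood at 93176 and 72716. Acinar, endocrine, endothelial and erythroid markers summed to at most 35.3 normalised counts per list in any clone library, with INS, GCG, SST, PPY, CPA1, CELA3A, AMY2A and PNLIP at 3 reads or fewer in every library. Of 8 immune markers only CD14 was abundant enough to compare, and CD3E, NKG7 and GNLY were at 3 reads or fewer everywhere. Of 6 fibroblast markers 3 were compared and 2 of them, PDGFRA and THY1, were higher in KO 2, whereas DCN and FAP were at 3 reads or fewer.

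The targeted gene was measured first. TIMP1 was counted at 1562, 1624 and 1613 in the KO 1 libraries and at 1136, 1192 and 1155 in the KO 2 libraries. Every KO 2 library lay below every KO 1 library, and both clones lay below WT (3553) and CRISPR Control (2690). The clone difference was -0.46 ± 0.09 (log2, SE; limma adjusted p = 4.0e-04), and it held that direction under each alternative run. TIMP1 lies at chromosome X 47582408 to 47586789 (GRCh38, plus strand), where it overlaps SYN1 on the opposite strand. The counting is not stated to use strand. Of the 148 genes named by rule 39 overlap another tested gene, 35 of them on the opposite strand, and their reads may be shared.

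Between the clones 6100 of the 15987 genes passed the threshold (limma, Benjamini-Hochberg adjusted p under 0.05), 38.2% of those tested. Of these, 2890 (18.1%) were higher in KO 2 and 3210 (20.1%) were lower. Counts of list members given below are to be read against these shares. Differences below are KO 2 minus KO 1 on the log2 scale, with the standard error after ±. The genes that were higher differed by more: 1124 (7.03%) were higher by at least 1 on the log2 scale and 195 (1.22%) were lower by as much. In 5959 of the 6100 genes the 3 libraries of one clone lay entirely above those of the other, against 53.1% of all genes tested. The median size of a called difference was 0.50 on the log2 scale and the median standard error of a difference was 0.11. The balance of directions rested on the scaling. With equal library totals in place of the deposited size factors 5933 genes passed, 65.5% of them higher in KO 2 against 47.4% with the size factors.

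Protein-coding genes and noncoding genes differed in balance. Of 13221 protein-coding genes 41.7% passed and 45.7% of those were higher in KO 2. Of 2024 long noncoding RNAs 22.5% passed and 71.5% of those were higher. Of 560 pseudogenes 16.1% passed and 26.7% of those were higher. The classes were not matched for abundance. Over all genes the share higher among those called was 42.1% with a minimum mean of 50 and 52.9% without a minimum.

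The largest differences upwards joined interferon-stimulated genes with surface receptors, adhesion molecules and matrix genes. IL1RL1, the receptor of the alarmin IL-33, had 0 reads in each KO 1 library and 349, 311 and 257 normalised counts in the KO 2 libraries. Against a floor of 3 reads per library this is at least 99.0-fold higher in KO 2. WT held 4.97 and CRISPR Control 0.288, so KO 2 was the 1 line with more than a few counts. FLRT3, a leucine-rich repeat adhesion protein that binds latrophilins and UNC5 receptors, was counted at 0, 0 and 11.5 in KO 1 against 545, 410.3 and 399 in KO 2. The fitted difference was 7.59 ± 0.62, adjusted p = 1.8e-08 by limma, and CRISPR Control (207) was nearer to KO 2 than WT (10.9) was. CES1, a carboxylesterase, had 2 to 3 reads in each KO 1 library and 402, 439 and 505 normalised counts in the KO 2 libraries. The ratio of the summed counts was 164, with a 95% counting interval of 83.0 to 381 (exact binomial). GPRIN3, a G protein-regulated inducer of neurite outgrowth, had 0 to 3 reads in the KO 1 libraries and 116, 101 and 92.8 normalised counts in the KO 2 libraries, a ratio of 76.6 with an interval of 29.6 to 283. These 3 genes, IL1RL1, CES1 and GPRIN3, were the only ones at 3 reads or fewer in every library of KO 1 and at a mean of at least 100 in KO 2, and no gene met the same rule the other way round.

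LRRN2, a neuronal leucine-rich repeat membrane protein, was counted at 7.56, 11.3 and 4.42 in KO 1 against 466, 542 and 544 in KO 2 (5.96 ± 0.22). CRISPR Control stood at 301 and WT at 60.4, between the clones. MMP1, the interstitial collagenase that TIMP-1 inhibits, was counted at 2.16, 4.50 and 8.83 in KO 1 against 262, 269 and 229 in KO 2, with 389 in CRISPR Control and 25.5 in WT. Its clone difference was 5.51 ± 0.28, adjusted p = 2.7e-11. COL13A1, a transmembrane collagen, went from 35.7, 31.5 and 12.4 in KO 1 to 945, 964 and 965 in KO 2, and here both other lines were low, at 31.9 in WT and 98.9 in CRISPR Control. Thus KO 2 was apart from all other lines for COL13A1, but not for MMP1.

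**Figure D1:**
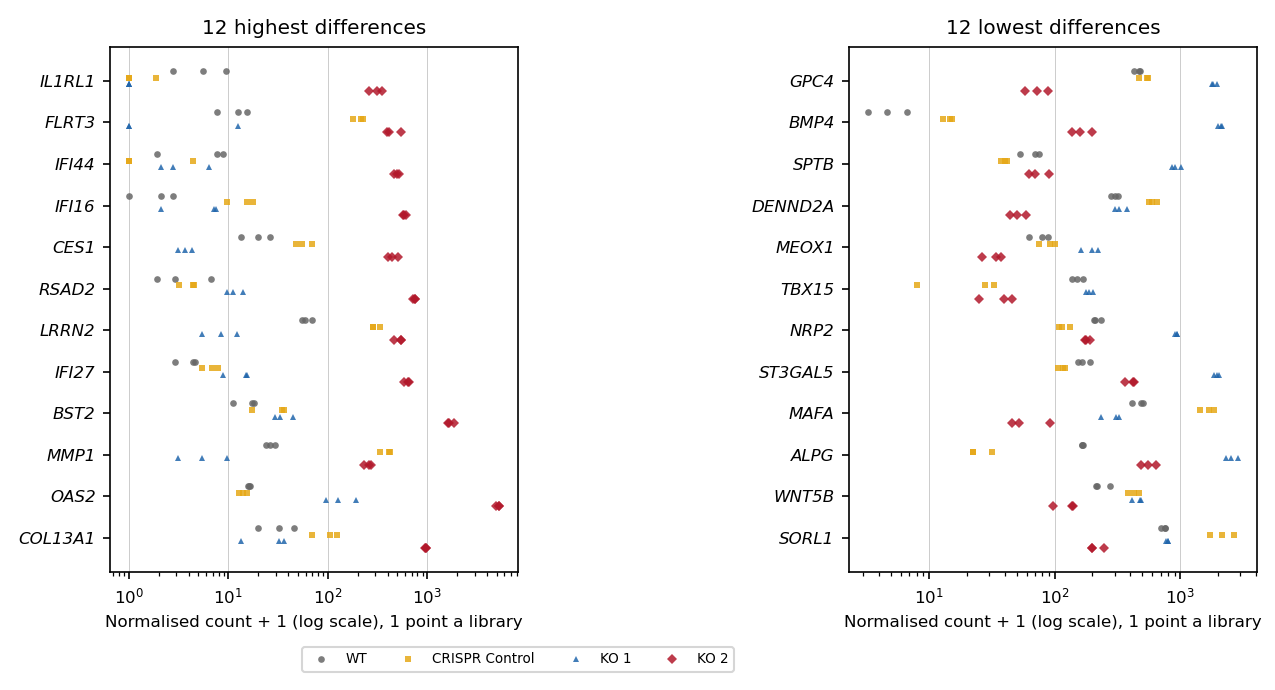
Normalised count + 1 on a log axis in each of the 12 libraries for the 12 genes with the highest (left) and the 12 with the lowest (right) difference of KO 2 against KO 1, 1 point a library. The naming rule took only genes in which the 3 KO 2 libraries (red diamonds) lie apart from the 3 KO 1 libraries (blue triangles). WT (grey) and CRISPR Control (orange) fall on either side or between.

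The largest difference downwards was in GPC4, a glypican that carries heparan sulfate chains and binds growth factors at the cell surface. It was counted at 1972, 1788 and 1820 in KO 1 against 72.1, 57.0 and 87.8 in KO 2, a difference of -4.69 ± 0.13, adjusted p = 6.9e-15, and lies at chromosome X 133300103 to 133415489 (GRCh38, minus strand). WT (459) and CRISPR Control (521) lay between the clones. BMP4, a bone morphogenetic protein, was counted at 2094, 2134 and 1974 in KO 1 against 196, 159 and 137 in KO 2 (-3.66 ± 0.23). Both other lines were close to 0 for BMP4, at 3.87 in WT and 13.3 in CRISPR Control, so that its level in KO 2 was still above theirs. SPTB, the beta-spectrin of the erythrocyte membrane skeleton, was counted at 1019, 914 and 853 in KO 1 against 62.1, 88.6 and 68.6 in KO 2 (-3.66 ± 0.17), and here KO 2 was near WT (64.7). ST3GAL5, the sialyltransferase that makes ganglioside GM3, was counted at 1860, 1953 and 2014 in KO 1 against 421, 363 and 429.8 in KO 2 (-2.26 ± 0.11), and ALPG, a germ-cell alkaline phosphatase, at 2899, 2298 and 2539 in KO 1 against 489.6, 547 and 639.7 in KO 2 (-2.21 ± 0.14). Both were lower in WT (169 and 165) and in CRISPR Control (114 and 24.6) than in either clone.

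In other genes KO 1 was nearer to WT and KO 2 lay below both. DENND2A, a regulator of Rab GTPases, was counted at 375, 302 and 327 in KO 1 against 43.1, 49.1 and 58.5 in KO 2 (-2.72 ± 0.13), with 299.6 in WT. SORL1, a sorting receptor of the endosome, was counted at 772, 796 and 794 in KO 1 against 245, 196 and 199 in KO 2 (-1.89 ± 0.12), with 735 in WT and 2183 in CRISPR Control. MAFA, a transcription factor known from insulin-producing cells, stood at 324, 233 and 309 in KO 1 against 44.7, 50.9 and 90.8 in KO 2 (-2.25 ± 0.20), with 469 in WT. The remaining 4 of the 12 were the homeobox gene MEOX1 (-2.58), the T-box gene TBX15 (-2.40), the semaphorin and VEGF co-receptor NRP2 (-2.35) and the Wnt ligand WNT5B (-1.89), all on the log2 scale.

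Interferon-stimulated genes made up the group with the highest median difference. The promoters of the 4 effectors with the highest difference that had a RefSeq entry, and of the effector with the lowest, are given for the contrast between them. They are the 250 bases before the start in RefSeq (GRCh38.p14), read 5′ to 3′ on the gene's own strand. Capitals mark matches to the ISRE core, GAAA, any 2 bases, then GAAA on either strand, and overlapping matches run together.
IFI44, chr1:78649539-78649788, plus strand, higher by 7.21: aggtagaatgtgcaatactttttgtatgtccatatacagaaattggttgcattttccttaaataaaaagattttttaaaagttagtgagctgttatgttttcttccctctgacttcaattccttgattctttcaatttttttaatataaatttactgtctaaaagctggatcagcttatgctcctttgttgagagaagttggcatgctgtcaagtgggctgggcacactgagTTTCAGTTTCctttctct
RSAD2, chr2:6865635-6865884, plus strand, higher by 6.01: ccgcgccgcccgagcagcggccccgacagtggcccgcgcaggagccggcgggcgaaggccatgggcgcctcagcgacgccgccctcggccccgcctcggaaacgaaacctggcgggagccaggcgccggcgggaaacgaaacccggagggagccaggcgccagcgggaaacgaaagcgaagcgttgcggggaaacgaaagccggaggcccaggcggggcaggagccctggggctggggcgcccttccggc
IFI27, chr14:94110486-94110735, plus strand, higher by 5.61: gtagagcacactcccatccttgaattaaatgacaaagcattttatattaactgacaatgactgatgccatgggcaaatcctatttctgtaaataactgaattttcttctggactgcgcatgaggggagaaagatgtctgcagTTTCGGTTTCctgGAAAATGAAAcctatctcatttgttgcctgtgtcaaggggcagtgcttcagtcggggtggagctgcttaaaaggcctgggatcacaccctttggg
BST2, chr19:17405631-17405880, minus strand, higher by 5.60: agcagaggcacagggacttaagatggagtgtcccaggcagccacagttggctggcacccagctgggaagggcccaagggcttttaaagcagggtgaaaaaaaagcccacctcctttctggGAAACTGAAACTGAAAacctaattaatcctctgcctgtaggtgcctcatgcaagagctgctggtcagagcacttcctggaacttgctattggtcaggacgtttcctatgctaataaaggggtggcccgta
MOV10, chr1:112674189-112674438, plus strand, -0.12 and not past the threshold: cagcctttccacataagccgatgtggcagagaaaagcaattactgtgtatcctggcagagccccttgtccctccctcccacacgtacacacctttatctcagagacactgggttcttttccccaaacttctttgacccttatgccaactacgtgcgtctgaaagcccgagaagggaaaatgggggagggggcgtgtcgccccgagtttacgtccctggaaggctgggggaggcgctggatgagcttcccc

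IFI44 held 1 match, starting 18 bases before the start site. IFI27 and BST2 held 2 each, at 108 and 95 bases in IFI27 and at 130 and 124 bases in BST2, where the pair overlaps. RSAD2 and MOV10 held none in this window, though RSAD2 holds GAAA pairs with 1 base between them in place of 2, which were not searched for. Of the 45 effectors with a RefSeq promoter 25 (55.6%) held a match, against 3.07% of all 27305 promoters of the same length and 2.31% of the promoters of tested genes. The list was written from known interferon-stimulated genes, so a high share was given by its membership and says nothing on the clones. Effectors with a match had a median difference of 2.06 and those without one 2.34, so a match did not go with a larger difference. A match is a string of letters and not a measured binding site.

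Of the 57 interferon effectors listed 56 were tested, 53 were higher in KO 2, 0 were lower and 3 did not pass. The median difference was 2.16 on the log2 scale, against -0.01 over all genes tested. Summed over the 56 genes the libraries held 56213, 61297 and 55223 normalised counts in KO 1 against 182427, 190732 and 185917 in KO 2, a 3.24-fold difference of the means. WT and CRISPR Control held 33691 and 30815 on average. The order of the lines was thus KO 2, then KO 1, then WT and CRISPR Control, and the sums of the clones did not overlap. Against WT the median effector stood at 1.33 in KO 1 and 3.42 in KO 2. Some effectors counted as higher, IFI44, GBP1 and SAMD9L among them, averaged below 10 in every other line. They reached the minimum only through KO 2, so their calls were not independent of the filter.

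IFI44 was counted at 5.40, 1.13 and 1.77 in KO 1 against 496, 519.9 and 466 in KO 2 (7.21 ± 0.62). WT (5.17) and CRISPR Control (1.15) were as low as KO 1, so that for this gene the step lay between KO 2 and everything else. RSAD2, which encodes viperin, an enzyme that makes a chain-terminating nucleotide, was counted at 13.0, 10.1 and 8.83 in KO 1 against 747, 718 and 754 in KO 2 (6.01 ± 0.38). IFI27, a mitochondrial interferon-induced protein, stood at 14.0, 14.6 and 7.95 in KO 1 against 588, 637 and 658 in KO 2 (5.61 ± 0.31), and BST2, the tetherin that holds budding virions at the membrane, at 32.4, 43.9 and 28.3 in KO 1 against 1617, 1660 and 1856 in KO 2 (5.60 ± 0.26). OAS2, a 2′-5′ oligoadenylate synthase that activates RNase L, was already above WT (15.1) in KO 1 at 125, 194 and 96.3, and reached 5230, 5342 and 4886 in KO 2. MX1, a dynamin-like antiviral GTPase, was likewise graded, at 54.6 in WT, 875 in KO 1 and 10129 in KO 2 on average. IFIT1, which binds viral RNA that lacks cap methylation, stood at 854, 1136 and 8806 in the same order. The 3 effectors that did not pass were MX2 (0.14), IFITM2 (0.10) and MOV10 (-0.12), all at means of at least 100 in both clones.

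Of the interferon ligands listed only the type III genes IFNL1, IFNL2 and IFNL3 were abundant enough to be tested. IFNB1, IFNA1, IFNE, IFNK and IFNG were not, so they were not compared. IFNL1 was counted at 16.2, 6.75 and 5.30 in KO 1 against 123, 160.4 and 130.2 in KO 2, a difference of 3.87 ± 0.60, adjusted p = 4.7e-05, with 0.755 in WT. IFNL2 (1.76 in KO 1 and 88.0 in KO 2 on average) and IFNL3 (3.66 and 95.0) were also higher in KO 2, but the pair is nearly identical in sequence and reads can be split between them. Of the 9 ligands and receptors tested these 3 were higher and 1 was lower, the interferon gamma receptor chain IFNGR2 (2828, 3119 and 3137 in KO 1 against 2614, 2733 and 2459 in KO 2). Its difference was -0.22 ± 0.08, adjusted p = 0.031 by limma, and the call was lost under both other scalings. The type I receptor chains IFNAR1 (-0.01) and IFNAR2 (-0.47) and the type III chain IFNLR1 (0.30) did not pass.

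Sensors of nucleic acid were mostly higher in KO 2, 7 of 9, with a median of 1.36. IFI16, which binds DNA in the nucleus and cytosol, was counted at 6.48, 1.13 and 6.18 in KO 1 against 611, 580.4 and 571 in KO 2 (6.92 ± 0.47), with 0.983 in WT and 13.2 in CRISPR Control. IFIH1, the long double-stranded RNA sensor MDA5, was counted at 556, 565 and 498 in KO 1 against 3142, 2974 and 2807 in KO 2 (2.46 ± 0.10), with 140.1 in WT. CGAS, the cytosolic DNA sensor, went the other way, at 2869, 2396 and 2429 in KO 1 against 1993, 1879 and 1957 in KO 2 (-0.40 ± 0.10, adjusted p = 0.0043), and MAVS, the adaptor of the RNA sensors, did not pass (-0.02). CGAS overlaps DDX43 on the opposite strand, which was also lower (-0.45).

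Among the signalling proteins IRF9, which gives the interferon-activated complex its DNA binding, was counted at 60.5, 60.8 and 56.5 in KO 1 against 115, 156 and 105 in KO 2 (1.05 ± 0.23, adjusted p = 0.0015). STAT3, a STAT of the interleukin-6 family, was lower in KO 2 at 22205, 22090 and 22014 in KO 1 against 16369, 16154 and 15953 in KO 2 (-0.45 ± 0.07). JAK1, a kinase of the interferon receptors, was also lower at 7858, 7696 and 8175 in KO 1 against 6870, 6644 and 6385 in KO 2 (-0.25 ± 0.07, adjusted p = 0.0063), a call lost with equal library totals and with quantile normalization. In all, 7 of 13 were higher and 2 lower, and JAK2, TYK2, IRF2 and IRF3 did not pass. Of 9 feedback genes 5 were higher, led by the ubiquitin-like modifier ISG15 (1456, 1558 and 1184 in KO 1 against 8013, 9615 and 10751 in KO 2, 2.76 ± 0.12) and USP18, the protease that removes it (381, 349 and 345 in KO 1 against 1505, 1612 and 1740 in KO 2, 2.17 ± 0.10). PIAS1, an E3 SUMO ligase that restrains STAT signalling, was lower at 1410, 1616 and 1524 in KO 1 against 1277, 1176 and 1085 in KO 2 (-0.36 ± 0.08). SOCS1, CISH and PIAS4 did not pass.

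Genes of MHC class I display, which load and show peptides to T cells and engage NK cell receptors, were higher in KO 2 in 14 of 19, with a median of 0.63. HLA-B was counted at 2454, 2385 and 2346 in KO 1 against 11612, 12629 and 14721 in KO 2 (2.43 ± 0.11), against 598 in WT. HLA-F, a non-classical class I gene, was counted at 118, 144 and 154 in KO 1 against 467, 542 and 481 in KO 2 (1.84 ± 0.16). B2M, the invariant light chain, stood at 14086 ± 358 in KO 1 and 29851 ± 680.0 in KO 2 (SD, n = 3). The size of the difference was uneven across the heavy chains, 2.43 in HLA-B, 1.38 in HLA-C and 0.57 in HLA-E, and these genes share long stretches of sequence, so reads may be split among them. The chaperones PDIA3 (16709, 16606 and 15807 in KO 1 against 12175, 11189 and 12600 in KO 2, -0.45 ± 0.07) and CALR (27256, 28589 and 26715 in KO 1 against 24214, 24032 and 24733 in KO 2, -0.18 ± 0.07) of the endoplasmic reticulum were lower, and the call of CALR (adjusted p = 0.049) was lost in most alternatives. Of the class II list only CD74 and CIITA were tested. CD74, the invariant chain, was at 3.24, 10.1 and 8.83 in KO 1 against 109, 120.1 and 99.9 in KO 2 (3.83 ± 0.35), and CIITA, the class II transactivator, did not pass (0.14).

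Secreted immune mediators were higher in KO 2 in 10 of 18 tested. CCL5, a chemokine for T cells and NK cells, was counted at 22.7, 29.3 and 17.7 in KO 1 against 200.5, 164 and 158 in KO 2 (2.88 ± 0.42), and IL18, an inflammasome cytokine, at 64.8, 41.6 and 55.7 in KO 1 against 370.3, 318 and 312 in KO 2 (2.62 ± 0.15). For IL18 WT (241) lay nearer to KO 2 and CRISPR Control (1293) lay above both, so KO 1 was the lowest line. CX3CL1, a membrane-bound chemokine, was lower in KO 2 at 12679, 12855 and 13406 in KO 1 against 8907, 9168 and 9227 in KO 2 (-0.51 ± 0.09), yet both clones exceeded WT (3968) and CRISPR Control (139). CSF1, the macrophage growth factor, was lower at 4375, 4570 and 5040 in KO 1 against 3065, 3070 and 3169 in KO 2 (-0.59 ± 0.07). Of 17 NK cell and checkpoint ligands 7 were higher and 2 lower. ULBP2, a ligand of the activating receptor NKG2D, was counted at 27.0, 28.1 and 30.0 in KO 1 against 177, 132 and 144 in KO 2 (2.36 ± 0.19), and NCR3LG1, the ligand of NKp30 known as B7-H6, at 369, 347 and 376 in KO 1 against 807, 892 and 734 in KO 2 (1.15 ± 0.15). BAG6, another NKp30 ligand, was lower at 14868, 14941 and 15982 in KO 1 against 11590, 12427 and 11966 in KO 2 (-0.35 ± 0.08), as was the B7 family member CD276 at 2533, 2529 and 2632 in KO 1 against 1874, 1994 and 2123 in KO 2 (-0.36 ± 0.07). MICA, MICB, PVR and NECTIN2 did not pass.

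Of 17 NF-kB genes 10 were higher and none lower. The adaptor TRAF1 was counted at 259, 264 and 336 in KO 1 against 629.6, 643 and 634 in KO 2 (1.16 ± 0.12) and the kinase IKBKE at 196, 159 and 155 in KO 1 against 335, 352 and 364 in KO 2 (1.05 ± 0.14). The called members included the inhibitors NFKBIA (0.65), NFKBIE (0.61) and NFKBIZ (0.72). Of the NF-kB subunits NFKB2 was higher at 4646, 4169 and 4412 in KO 1 against 6753, 7168 and 7718 in KO 2 (0.71 ± 0.08), whereas RELA (-0.02), REL (0.01), NFKB1 (0.13) and RELB (0.13) did not pass.

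**Figure D2:**
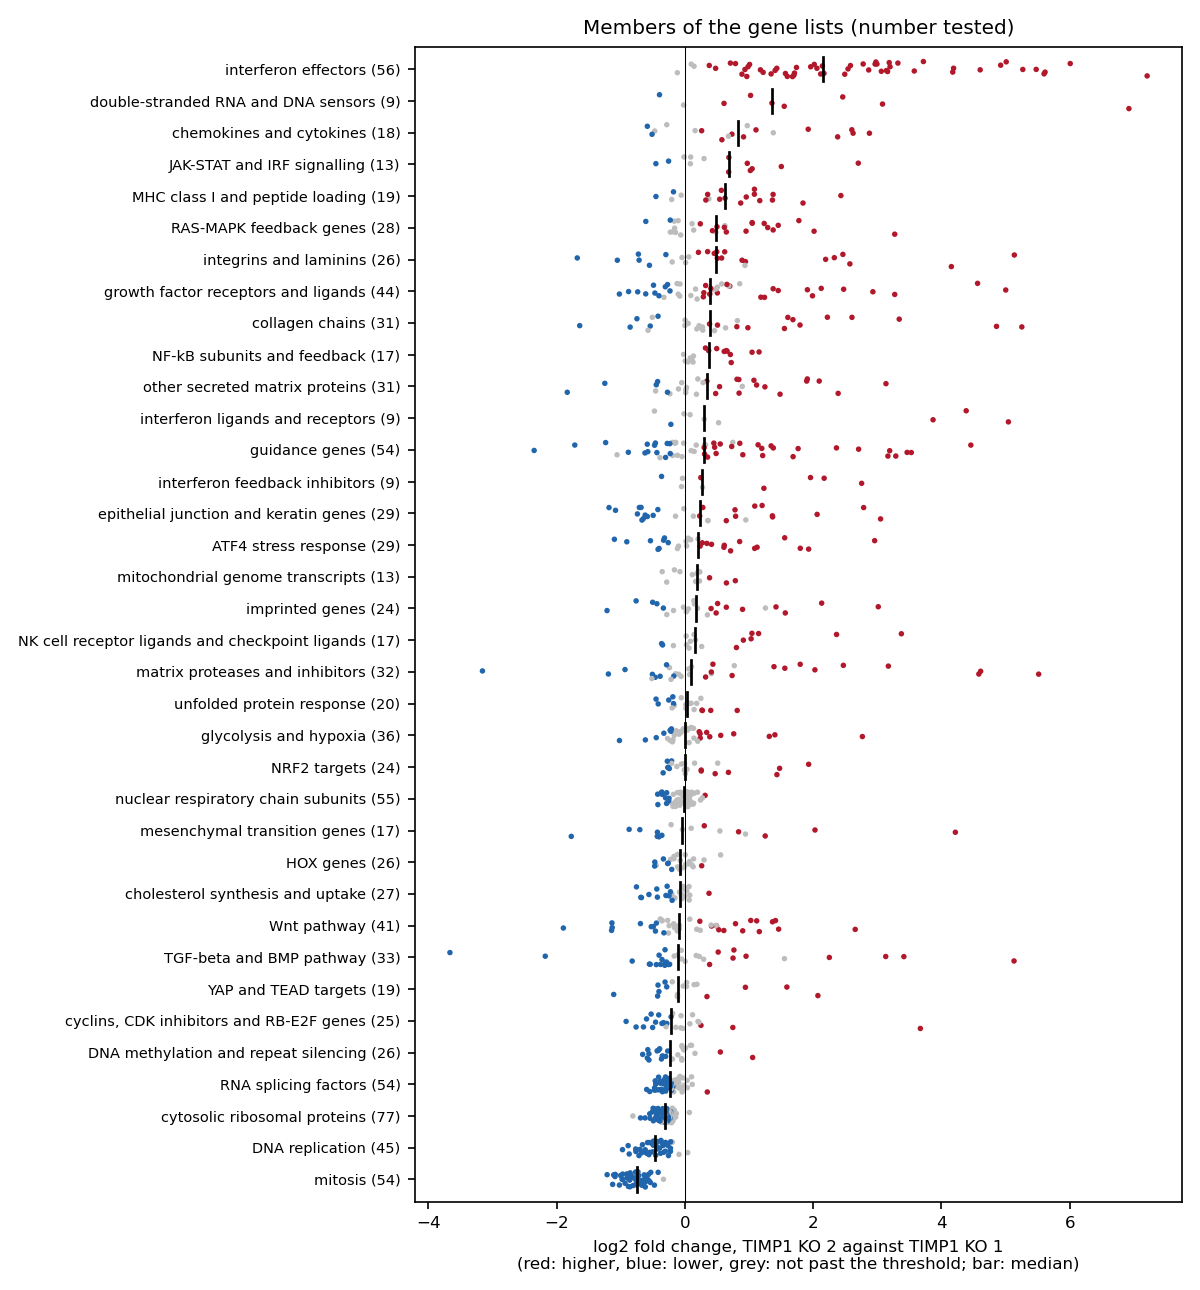
Log2 fold change of KO 2 against KO 1 (x axis) for each tested member of the gene lists described here with at least 5 tested members, ordered by the list median (black bar), with red for members higher in KO 2, blue for lower and grey for members that did not pass. The interferon effectors lie to the right with a median of 2.16, and DNA replication and mitosis lie to the left with medians of -0.47 and -0.75.

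Mitosis and DNA replication genes were lower in KO 2 almost without exception, and the medians of both lists stayed negative under each scaling. Of 54 mitosis genes 53 were lower, none was higher and CENPK (-0.33) did not pass, against 20.1% of all genes that were lower. The median was -0.75, and the differences ran from -1.21 to -0.33. The summed list held 261600, 265981 and 267201 in KO 1 against 161565, 152623 and 150466 in KO 2, a 1.71-fold lower mean in KO 2. TOP2A, which untangles sister chromatids, was counted at 24976, 25055 and 24834 in KO 1 against 11634, 10247 and 10488 in KO 2 (-1.21 ± 0.08, adjusted p = 5.3e-10), with 27764 in WT and 26977 in CRISPR Control. CENPA, the histone variant of the centromere, was counted at 1559, 1457 and 1534 in KO 1 against 664, 715 and 703 in KO 2 (-1.13 ± 0.09). The proliferation marker MKI67 stood at 11701 ± 222 in KO 1 and 7563 ± 809 in KO 2 (SD, n = 3). Against WT the median mitosis gene stood at -0.22 in KO 1 and -1.05 in KO 2, so KO 1 lay nearer to WT.

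DNA replication genes were lower in KO 2 in 41 of 45, with a median of -0.47. TYMS, which makes thymidylate, was counted at 2634, 2715 and 2967 in KO 1 against 1418, 1386 and 1428 in KO 2 (-0.97 ± 0.09), and CDC45, a subunit of the replicative helicase, at 1603, 1576 and 1536 in KO 1 against 840.0, 843 and 871 in KO 2 (-0.88 ± 0.07). All 6 MCM2 to MCM7 helicase subunits were lower, from -0.43 in MCM4 to -0.87 in MCM7. FEN1, RPA3, POLA2 and TIPIN did not pass. Here KO 1 was already below WT, with medians against WT of -0.60 in KO 1 and -1.08 in KO 2. Summed levels were 131068, 133947 and 135298 in KO 1 against 93071, 89966 and 93927 in KO 2, against 200769 in WT and 185076 in CRISPR Control. In the interferon effector, NF-kB, mitosis, DNA replication and ribosomal protein lists, the direction with no called member also had 0 members at an unadjusted p under 0.05 by limma and 0 called by edgeR or DESeq2. In bulk RNA fewer cycling cells and less of these transcripts per cell cannot be told apart.

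Of the cyclin, CDK inhibitor and RB-E2F genes 12 of 25 were lower and 3 higher. The scaling moved these counts, to 6 higher and 9 lower with equal library totals, and 4 and 11 with quantile normalization. E2F2 was counted at 676, 663 and 754 in KO 1 against 363, 365 and 378 in KO 2 (-0.92 ± 0.09), E2F8 at 628, 641 and 727 in KO 1 against 432, 379.6 and 366 in KO 2 (-0.76 ± 0.11) and E2F7 at 796, 801 and 771 in KO 1 against 1408, 1337 and 1238 in KO 2 (0.75 ± 0.10), so that the atypical repressors E2F7 and E2F8 differed in opposite directions. CCND3 was higher at 1883, 1773 and 2038 in KO 1 against 2067, 2229 and 2490 in KO 2 (0.25 ± 0.09). CDKN1A, which encodes the inhibitor p21, did not pass between the clones (3420 and 3283), with 1140 in WT.

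Promoters of these lists held motifs of cell cycle control, which were chosen for the search after the values were known. The cell cycle homology region TTTGAA, searched on both strands in the same 250 bases, was present in 55.3% (26 of 47) of mitosis promoters, against 13.6% of all promoters and 8.22% of those of tested genes. The E2F core TTTCCCGC was present in 21.6% (8 of 37) of DNA replication promoters, against 1.42% of all promoters and 2.20% of those of tested genes. Mitosis genes with TTTGAA had a median difference of -0.79 and those without it -0.73. Both lists were written from known cell cycle genes, so high shares were given by their membership.

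RNA splicing factors and ribosomal proteins differed by less, and most called members were lower. Of 54 splicing factors 30 were lower and only SRSF5 was higher (2120, 2229 and 2169 in KO 1 against 2846, 2656 and 2803 in KO 2, 0.35 ± 0.08), with a median of -0.24. HNRNPL, a regulator of exon choice, was counted at 16573, 16824 and 15886 in KO 1 against 10921, 10681 and 11007 in KO 2 (-0.60 ± 0.06), and RBM8A, a core protein of the exon junction complex, at 2258, 2172 and 2078 in KO 1 against 1624, 1398 and 1435 in KO 2 (-0.55 ± 0.09). Of 77 cytosolic ribosomal protein genes 51 were lower and none was higher, with a median of -0.30. The stalk protein RPLP1 was counted at 29211, 27114 and 26029 in KO 1 against 15471, 17319 and 18264 in KO 2 (-0.69 ± 0.10) and RPL7 at 18008, 19384 and 17602 in KO 1 against 11919, 11517 and 12315 in KO 2 (-0.62 ± 0.08). The list took 4.62% to 4.97% of the normalised counts of a KO 1 library and 3.86% to 4.22% of a KO 2 library. The medians of both lists stayed negative with equal library totals, at -0.14 and -0.20, but fewer members passed as lower. Splicing factors numbered 3 higher and 18 lower with equal library totals, and 3 and 20 with quantile normalization. Ribosomal protein genes numbered 0 higher and 26 lower with equal library totals, and 0 and 24 with quantile normalization.

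Transcripts of the mitochondrial genome took 0.770% to 0.937% of a KO 1 library and 0.872% to 1.16% of a KO 2 library, and these ranges overlapped. Of 13 such transcripts MT-ND6 (4179, 4064 and 3398 in KO 1 against 7088, 7156 and 5839 in KO 2, 0.79 ± 0.11), MT-ND5 (9778, 12348 and 11668 in KO 1 against 19691, 20108 and 13673 in KO 2, 0.65 ± 0.13) and MT-ND1 (0.38) passed, all higher, and 2 others were lower at an unadjusted p under 0.05 without passing. The 23.1% that passed was close to the 18.1% of all genes that were higher. The count rested on the scaling and the tool, with 6 higher and 0 lower with equal library totals, and 7 and 1 with quantile normalization, and 5 higher with edgeR and with DESeq2. MT-ND6 is encoded on the opposite strand to the others. Of 55 nuclear subunits of the respiratory chain 44 did not pass, 10 were lower, as in ATP5F1D (4683, 3996 and 4510 in KO 1 against 2719, 3485 and 3685 in KO 2, -0.42 ± 0.13) and NDUFB9 (3909, 3424 and 3182 in KO 1 against 2381, 2514 and 2964 in KO 2, -0.42 ± 0.10), and NDUFS4 was higher (602, 699.9 and 648 in KO 1 against 843, 761 and 819 in KO 2, 0.32 ± 0.10). The shares lower and higher were close to or below those of all genes, and the counts were 4 higher and 5 lower with equal library totals, and 4 and 7 with quantile normalization.

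Matrix genes split by level. Of 31 collagen chains 13 were higher in KO 2 and 5 lower, with a median of 0.38, while the summed level was lower in KO 2 (88156, 103172 and 116435) than in KO 1 (170073, 137492 and 153357). The share of chains called lower was not above the 20.1% of all genes. The few abundant chains were lower: COL1A1 stood at 56612 in KO 1 and 33836 in KO 2 (-0.75), and COL18A1 at 79450 and 54777 (-0.54). COL5A1 was counted at 4225, 3809 and 4151 in KO 1 against 1201, 1302 and 1410 in KO 2 (-1.64 ± 0.10, adjusted p = 4.5e-10), with 699 in WT, and COL9A3 at 10342, 7834 and 8590 in KO 1 against 4180, 4808 and 5873 in KO 2 (-0.85 ± 0.11). The chains that were higher were mostly scarce in KO 1. COL11A1, a fibrillar collagen, was counted at 14.0, 3.38 and 6.18 in KO 1 against 200.5, 234 and 242 in KO 2 (4.86 ± 0.28), with 168 in WT and 1444 in CRISPR Control, so that its level in KO 2 was near WT and KO 1 was the lowest line. COL5A2 was also higher in KO 2 (457) than in KO 1 (44.2), but both clones lay far below WT (4048).

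Of 32 proteases and inhibitors 13 were higher and 8 lower, against 18.1% higher and 20.1% lower over all genes. Beside MMP1, the aggrecanase family member ADAMTS1 was higher at 5.40, 5.63 and 6.18 in KO 1 against 159, 186 and 147 in KO 2 (4.61 ± 0.28). MMP7, matrilysin, was lower at 126, 113 and 99.8 in KO 1 against 17.4, 17.5 and 5.04 in KO 2 (-3.16 ± 0.41), where KO 1 stood above WT (15.8) and KO 2 did not. ADAM19 was lower at 2675, 2578 and 2617 in KO 1 against 1142, 1167 and 1133 in KO 2 (-1.19 ± 0.10), with 655 in WT. MMP2 (-0.10), ADAM10 (-0.14), ADAM17 (0.10) and TIMP2 (0.07) did not pass. Among 26 integrins and laminins 15 were higher and 6 lower, the latter a share near the 20.1% of all genes. The collagen receptor chain ITGA2 was counted at 5480, 5544 and 5363 in KO 1 against 11572, 10480 and 9563 in KO 2 (0.94 ± 0.11) and the laminin receptor chain ITGA7 at 64.8, 50.6 and 55.7 in KO 1 against 87.8, 124 and 110.0 in KO 2 (0.89 ± 0.15). ITGB2, the leukocyte integrin beta chain, was lower at 140.4, 147 and 141 in KO 1 against 38.1, 40.3 and 55.5 in KO 2 (-1.68 ± 0.24), as was the laminin chain LAMC3 at 1867, 1746 and 1839 in KO 1 against 773, 910.1 and 953 in KO 2 (-1.05 ± 0.10). ITGB1 (52078 and 50555) and ITGA3 did not pass.

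Other secreted matrix proteins were higher in 15 and lower in 5 of 31, the latter not above the 20.1% of all genes. Fibrillin-1 (FBN1) was counted at 33.5, 23.6 and 20.3 in KO 1 against 137, 142 and 131 in KO 2 (2.39 ± 0.21) and matrilin-2 (MATN2) at 243, 237 and 246 in KO 1 against 889.7, 898 and 947 in KO 2 (1.91 ± 0.12). The proteoglycan SPOCK1 was lower at 1688, 1780 and 1901 in KO 1 against 883, 684 and 704 in KO 2 (-1.25 ± 0.10), still above WT (230.4), and fibulin-1 (FBLN1) was lower at 8186, 8228 and 8143 in KO 1 against 5633, 6213 and 6196 in KO 2 (-0.45 ± 0.08).

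Epithelial genes went both ways, 12 higher and 11 lower of 29. Plakophilin 1 (PKP1), a desmosome plaque protein, was counted at 15.1, 19.1 and 15.9 in KO 1 against 128, 156 and 152 in KO 2 (3.05 ± 0.21), and the tight junction protein TJP3 at 25.9, 30.4 and 58.3 in KO 1 against 74.6, 98.2 and 113 in KO 2 (1.36 ± 0.27). The tight junction strand protein CLDN1 was lower at 569, 567 and 563 in KO 1 against 249, 273 and 227 in KO 2 (-1.18 ± 0.09), and the desmosomal cadherin DSG2 at 3884, 3733 and 3624 in KO 1 against 2455, 2243 and 2047 in KO 2 (-0.74 ± 0.09). The keratins did not move as a group: KRT19 was higher (1.09), while KRT8 (-0.49) and KRT18 (-0.67) were lower. E-cadherin (CDH1) was low in both clones, 128 and 84.9, against 1189 in WT. Of 17 mesenchymal genes 5 were higher and 7 lower. N-cadherin (CDH2) was counted at 82.1, 100.1 and 98.9 in KO 1 against 402, 358 and 393 in KO 2 (2.03 ± 0.10), with 571 in WT, and the repressor ZEB2 at 57.3, 42.8 and 47.7 in KO 1 against 151, 104 and 104 in KO 2 (1.25 ± 0.19). TCF4, a basic helix-loop-helix factor, was lower at 96.2, 85.5 and 96.3 in KO 1 against 25.7, 26.3 and 27.2 in KO 2 (-1.77 ± 0.21), and tropomyosin 1 (TPM1) at 22322, 22505 and 22124 in KO 1 against 12660, 11832 and 12182 in KO 2 (-0.87 ± 0.06).

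Of 19 YAP and TEAD targets 4 were higher and 6 lower. These shares were near those of all genes (18.1% higher and 20.1% lower), and the balance turned with the scaling, to 5 higher and 4 lower with equal library totals, and 6 and 5 with quantile normalization. ANKRD1 was counted at 1291, 1296 and 1335 in KO 1 against 2726, 2475 and 2357 in KO 2 (0.94 ± 0.10) and the kinase NUAK2 at 483, 504 and 526 in KO 1 against 663, 638 and 620.5 in KO 2 (0.34 ± 0.10), both higher. AMOTL2, an angiomotin that binds YAP, was lower at 3917, 3628 and 4043 in KO 1 against 1750, 1833 and 1782 in KO 2 (-1.11 ± 0.08), and CCN2 at 18693, 18831 and 19542 in KO 1 against 14850, 14154 and 13519 in KO 2 (-0.43 ± 0.07). CCN1, another standard target, did not pass (17441 and 17723).

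In the TGF-beta and BMP list 15 of 33 were lower and 9 higher. The balance depended on the scaling, with 12 higher and 9 lower with equal library totals, and 10 and 12 with quantile normalization. Besides BMP4, the co-receptor TGFBR3 was lower at 191, 159.8 and 129 in KO 1 against 33.1, 29.8 and 40.4 in KO 2 (-2.18 ± 0.19). The BMP targets ID1 (-0.55), ID3 (-0.36), SMAD6 (-0.82) and SMAD7 (-0.45) were lower and ID2 (0.75) was higher. The activin subunit INHBA was higher at 14.0, 21.4 and 15.9 in KO 1 against 194, 136 and 142 in KO 2 (3.13 ± 0.29), and GDF15, a stress-induced member of the family, at 399, 409.6 and 384 in KO 1 against 1600, 2085 and 2044 in KO 2 (2.25 ± 0.11), where KO 1 lay below WT (1740). Of 41 Wnt pathway genes 14 were higher and 10 lower, against 18.1% higher and 20.1% lower over all genes. Here too the majority direction turned, with 17 higher and 9 lower with equal library totals, and 10 and 14 with quantile normalization. DKK1, a secreted antagonist of the Wnt co-receptors, was counted at 3861, 3871 and 4047 in KO 1 against 11143, 10735 and 10554 in KO 2 (1.46 ± 0.07), and LGR4, a receptor of R-spondins, at 1669, 1519 and 1552 in KO 1 against 4346, 4207 and 4064 in KO 2 (1.41 ± 0.07). WNT5B was lower at 486, 414 and 475 in KO 1 against 96.9, 139 and 136 in KO 2 (-1.89 ± 0.15) and WNT11 at 2058, 1933 and 1956 in KO 1 against 840.0, 894 and 961 in KO 2 (-1.14 ± 0.10). AXIN2 (-0.38) did not pass.

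Of 28 genes that respond to RAS-MAPK signalling 15 were higher and 2 lower, with a median of 0.49. The transcription factor ETV1 was counted at 332, 414 and 379.9 in KO 1 against 1734, 1460 and 1365 in KO 2 (2.01 ± 0.13) and the phosphatase DUSP5, which inactivates ERK in the nucleus, at 1486, 1516 and 1637 in KO 1 against 5053, 5561 and 5285 in KO 2 (1.78 ± 0.08). MYC was lower at 2823, 3027 and 3005 in KO 1 against 1927, 2040 and 1839 in KO 2 (-0.61 ± 0.07), as was the receptor EPHA2 at 11460, 11011 and 11373 in KO 1 against 8960, 9976 and 9988 in KO 2 (-0.23 ± 0.08), though the call of EPHA2 (adjusted p = 0.034) was lost in several alternatives. Growth factor receptors and ligands were higher in 20 and lower in 10 of 44, the latter a share near the 20.1% of all genes. The PDGF receptor PDGFRA was counted at 11.9, 4.50 and 8.83 in KO 1 against 272, 274 and 305 in KO 2 (5.00 ± 0.51), with 23.6 in WT, and the lymphangiogenic factor VEGFC at 10.8, 11.3 and 9.72 in KO 1 against 284, 274 and 259 in KO 2 (4.56 ± 0.11). For VEGFC WT (339.6) and CRISPR Control (2119) were at or above KO 2, so the low line was KO 1. The ligand PDGFB was lower at 5088, 4716 and 4904 in KO 1 against 2159, 2493 and 2615 in KO 2 (-1.02 ± 0.09), and the IGF binding protein IGFBP7 at 11469, 9453 and 10651 in KO 1 against 5292, 5694 and 6179 in KO 2 (-0.88 ± 0.09).

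Axon guidance genes, which encode paired ligands and receptors of the cell surface, were higher in 25 and lower in 14 of 54. Over all genes 18.1% were higher and 20.1% lower. Plexin A2 (PLXNA2), a semaphorin receptor, was counted at 61.6, 68.6 and 50.4 in KO 1 against 1229, 1358 and 1418 in KO 2 (4.46 ± 0.14, adjusted p = 6.0e-14), with 158 in WT. The netrin receptor UNC5C was counted at 14.0, 10.1 and 10.6 in KO 1 against 149, 142 and 138 in KO 2 (3.53 ± 0.19). NRP2, a co-receptor for class 3 semaphorins, was lower at 935, 900.1 and 935 in KO 1 against 178, 174 and 189 in KO 2 (-2.35 ± 0.11), with 216 in WT near KO 2, and the ephrin EFNA2 was lower at 242, 276 and 279 in KO 1 against 72.9, 90.3 and 77.7 in KO 2 (-1.72 ± 0.13).

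Stress and metabolic lists were mixed. Of 29 ATF4 targets 14 were higher and 8 lower, against 18.1% higher and 20.1% lower over all genes. ATF3 was counted at 157, 207 and 210.2 in KO 1 against 1458, 1538 and 1446 in KO 2 (2.96 ± 0.13) and the cystine transporter SLC7A11 at 65.9, 81.0 and 71.6 in KO 1 against 287, 258 and 294 in KO 2 (1.93 ± 0.14). The serine synthesis enzyme PHGDH was lower at 8506, 8113 and 7926 in KO 1 against 4089, 4096 and 4967 in KO 2 (-0.91 ± 0.09), and the lipoprotein receptor VLDLR was lower at 119.9, 86.6 and 125 in KO 1 against 46.4, 47.3 and 58.5 in KO 2 (-1.10 ± 0.19). ATF4 itself did not pass (0.05). Of 20 unfolded protein response genes 4 were higher and 5 lower. These shares were near those of all genes, and the split was 6 higher and 2 lower with equal library totals, and 6 and 2 with quantile normalization. ERN1, the IRE1 sensor, was counted at 338, 366 and 370.1 in KO 1 against 603, 677 and 613 in KO 2 (0.82 ± 0.12) and HERPUD1 at 884, 883 and 857 in KO 1 against 1153, 1104 and 1217 in KO 2 (0.40 ± 0.08), whereas the chaperones HYOU1 (16916, 16350 and 16561 in KO 1 against 11860, 12014 and 12620 in KO 2, -0.45 ± 0.07) and PDIA4 (17998, 18693 and 17703 in KO 1 against 13795, 13417 and 13546 in KO 2, -0.42 ± 0.06) were lower and HSPA5 did not pass (0.18).

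Of 27 sterol and lipid synthesis genes 11 were lower and 1 was higher. There were 1 higher and 7 lower with equal library totals, and 0 and 7 with quantile normalization. The desaturase SCD was counted at 20960, 21033 and 20296 in KO 1 against 12485, 12678 and 11761 in KO 2 (-0.75 ± 0.07) and HSD17B7 at 485, 507 and 424 in KO 1 against 317, 298 and 263 in KO 2 (-0.69 ± 0.12). STARD4, a sterol carrier, was higher at 142, 116 and 116 in KO 1 against 171, 151 and 161 in KO 2 (0.38 ± 0.13), a call (adjusted p = 0.034) that several alternatives lost. HMGCS1 (0.07) did not pass. Of 36 glycolysis and hypoxia genes 10 were higher and 7 lower. The share that was lower was near the 20.1% of all genes. Other scalings gave 13 higher and 4 lower with equal library totals, and 11 and 5 with quantile normalization. Hexokinase HK2 was counted at 578, 549 and 515 in KO 1 against 1435, 1383 and 1528 in KO 2 (1.40 ± 0.09) and the lipase inhibitor ANGPTL4 at 1681, 1519 and 1658 in KO 1 against 3538, 4021 and 4595 in KO 2 (1.32 ± 0.11). Carbonic anhydrase CA12 was lower at 136, 164 and 150.2 in KO 1 against 79.5, 69.3 and 71.6 in KO 2 (-1.02 ± 0.18), and the mitophagy receptor BNIP3L at 2238, 2168 and 2018 in KO 1 against 1546, 1280 and 1374 in KO 2 (-0.62 ± 0.09). Of 24 NRF2 targets 7 were higher and 6 lower. The lower members were mostly lost under other scalings, which gave 7 higher and 1 lower with equal library totals, and 6 and 2 with quantile normalization. OSGIN1 was counted at 173, 159 and 143 in KO 1 against 379, 459 and 492 in KO 2 (1.48 ± 0.13), while the glutathione synthesis subunit GCLM was lower at 971, 889 and 889.6 in KO 1 against 814, 705 and 661 in KO 2 (-0.34 ± 0.11), as was PGD of the pentose phosphate pathway at 7638, 7936 and 7258 in KO 1 against 6168, 6303 and 6400 in KO 2 (-0.27 ± 0.07).

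Genes of DNA methylation and repeat silencing were lower in 13 and higher in 2 of 26, with a median of -0.23. UHRF1, which brings DNMT1 to replicated DNA, was counted at 4418, 4464 and 4382 in KO 1 against 2754, 2750 and 2905 in KO 2 (-0.66 ± 0.07), and the histone methyltransferase SUV39H1 at 803, 976 and 949 in KO 1 against 591, 602 and 616 in KO 2 (-0.59 ± 0.11). The maintenance methyltransferase DNMT1 stood at 10207 in KO 1 and 6838 in KO 2 (-0.58). The members that were higher were SAMHD1 (2169, 2428 and 2208 in KO 1 against 4758, 4644 and 4735 in KO 2, 1.06 ± 0.07) and the RNA editor ADAR (11303, 11560 and 10997 in KO 1 against 17000, 16946 and 15745 in KO 2, 0.55 ± 0.08), both of which are known to be induced by interferon. Of 24 imprinted genes 9 were higher and 5 lower, the latter a share near the 20.1% of all genes. IGF2 was counted at 28.1, 33.8 and 44.2 in KO 1 against 269, 285 and 311 in KO 2 (3.01 ± 0.14), against 432 in WT, and NAP1L5 at 37.8, 66.4 and 56.5 in KO 1 against 229, 226 and 241 in KO 2 (2.13 ± 0.27). PLAGL1, a zinc finger factor, was lower at 1383, 1562 and 1595 in KO 1 against 695, 640.1 and 619 in KO 2 (-1.21 ± 0.10), and MEST at 3733, 3871 and 3883 in KO 1 against 2343, 2270 and 2170 in KO 2 (-0.76 ± 0.07). Of 26 HOX genes 19 did not pass, and the 26.9% that passed was below the 38.2% of all genes. The share that was lower was near the 20.1% of all genes. HOXC13 was higher at 2350, 2163 and 2246 in KO 1 against 2556, 2630 and 2927 in KO 2 (0.26 ± 0.08), and 6 were lower, led by HOXB2 (3006, 2758 and 2822 in KO 1 against 1901, 2091 and 2208 in KO 2, -0.47 ± 0.09) and HOXA3 (359, 344 and 337 in KO 1 against 242, 274 and 236 in KO 2, -0.47 ± 0.11). The HOX counts were 2 higher and 3 lower with equal library totals, and 1 and 4 with quantile normalization. Of 50 cancer-testis antigens listed only PRAME, higher at 1049, 1043 and 1091 in KO 1 against 1446, 1477 and 1543 in KO 2 (0.49 ± 0.07), and DDX43, lower at 1867, 1787 and 1812 in KO 1 against 1444, 1235 and 1317 in KO 2 (-0.45 ± 0.08), were expressed enough to be tested.

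Genes that differed were unevenly spread over the chromosomes. On chromosome 15, 38.2% of 516 genes were lower in KO 2 and 10.1% higher, with a median of -0.20. Chromosome 8 (32.6% lower, 13.5% higher, median -0.13) and chromosome 17 (28.4% lower, 12.7% higher, median -0.12) followed. The shares of higher genes were largest on chromosomes 5 (24.9%) and 4 (24.4%). No other chromosome had a median beyond 0.07 in size.

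By the rule of 25 consecutive tested genes of which at least 80% were called in 1 direction, a single block was found. It spans chromosome 1 from 113761832 to 120341871 (GRCh38, 6.58 Mb) and holds 32 tested genes, of which 24 were lower in KO 2, none was higher and 8 did not pass, with a median of -0.60. The immunoglobulin superfamily gene IGSF3 was counted at 987, 976 and 1014 in KO 1 against 352, 283 and 328 in KO 2 (-1.63 ± 0.11) and TBX15 at 177, 187 and 199.6 in KO 1 against 38.9, 44.7 and 24.2 in KO 2 (-2.40 ± 0.36). PHGDH, the serine synthesis enzyme named above, lies in the block, as does the transcription termination factor gene TTF2 (-1.03). NOTCH2, at the centromeric end, did not pass (-0.20). Against WT the median member stood at 0.08 in KO 1 and -0.46 in KO 2, and CRISPR Control stood at -0.37. The block median was thus low in both KO 2 and CRISPR Control, which acquired only a silent change in TIMP1. Single members varied in CRISPR Control. TBX15 stood at 21.9 there against 151 in WT, whereas IGSF3 stood at 1259 against 834. NRAS (4190 against 4135), WDR3 and SIKE1 were near WT in CRISPR Control. The block was not found by the same rule when any 1 library of KO 1, KO 2 or WT was left out, with equal library totals, or without the minimum on the mean. Copy number was not measured here.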

How the data were processed

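RNA of 4 lines, WT, CRISPR Control, TIMP1 KO 1 and TIMP1 KO 2, was sequenced in 3 biological replicates each as paired-end libraries. The authors trimmed reads with Cutadapt, aligned them with STAR to GRCh38, assigned them to genes with featureCounts and scaled each library by its DESeq2 size factor. The strand setting of the counting is not given in the sources used here. The deposited values are a signal, normalised counts, from which whole reads were recovered (100% of values within 0.01 of a whole number), 26908701 to 36093563 reads in genes per library. Intervals and floors (3 reads) cover counting error only. Reads were not analysed here, 1 blank line was left out, and 4 columns of line means were not used.

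Genes with a mean of at least 10 over the 12 libraries (15987) were compared on log2(normalised count + 1) with limma 3.58.1 (R 4.3.3). That scale understates differences of low genes. All 4 lines entered the fit and shared the estimate of spread, without a replicate block, and p-values were adjusted by Benjamini-Hochberg over all genes tested (threshold 0.05). On simulated data of 15987 genes limma recovered 84 of 100 genes changed by 1 on the log2 scale and 98 of 100 changed by 2, with 8 false calls. Only those genes were changed, equally up and down, whereas 38.2% of genes passed between the clones. The simulation therefore does not give the recovery or false calls of the real comparison. Alternatives were other pseudocounts (0.5 and 10), a minimum mean of 50 or none, equal library totals, quantile normalization, the 6 knockout libraries alone, a replicate block, each library left out, and edgeR 4.0.16 and DESeq2 1.42.0 on the recovered reads. Genes named by rule were TIMP1, the 12 highest and 12 lowest differences (called, mean of at least 100 over the 6 knockout libraries, clones not overlapping), the 2 highest and 2 lowest called members of each list (mean of at least 50), up to 5 genes at the floor in 1 clone and 2 members of the chromosome block. Every other gene named was chosen after its values were seen. The comparison and the lists were chosen with earlier results of these data known. Gene positions are from GENCODE (GRCh38), promoters from RefSeq (GRCh38.p14). Replicate numbers did not pair the libraries. A few genes and 1 list are not reported here.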

Additional observations from a re-analysis of the deposited data

Results flagged for a closer look

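In 28 of the 148 genes named by rule the clones lay on opposite sides of WT, each past the limma threshold against WT. The rule took genes that differed between the clones, so that difference was given in advance. Of all 15987 genes tested 270 lay likewise on opposite sides of WT. These were not picked for a clone difference, so the shares cannot be compared. WT libraries enter both contrasts, and fitted values of genes near 0 reads in KO 1, IL1RL1, CES1 and GPRIN3 among them, depend on the pseudocount and are no bound. All values are log2 differences.

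Higher in KO 2 and lower in KO 1 than in WT were 18 genes. IL1RL1 differed by 8.25 between the clones, with -2.41 in KO 1 and 5.84 in KO 2 against WT. FLRT3 differed by 7.59 between the clones, with -2.30 in KO 1 and 5.29 in KO 2 against WT. CES1 differed by 6.92 between the clones, with -2.38 in KO 1 and 4.54 in KO 2 against WT. LRRN2 differed by 5.96 between the clones, with -2.88 in KO 1 and 3.08 in KO 2 against WT. MMP1 differed by 5.51 between the clones, with -2.25 in KO 1 and 3.26 in KO 2 against WT. IL18 differed by 2.62 between the clones, with -2.16 in KO 1 and 0.46 in KO 2 against WT. ULBP2 differed by 2.36 between the clones, with -0.65 in KO 1 and 1.71 in KO 2 against WT. NCR3LG1 differed by 1.15 between the clones, with -0.42 in KO 1 and 0.73 in KO 2 against WT. ITGA7 differed by 0.89 between the clones, with -0.49 in KO 1 and 0.40 in KO 2 against WT. FBN1 differed by 2.39 between the clones, with -0.99 in KO 1 and 1.40 in KO 2 against WT. PKP1 differed by 3.05 between the clones, with -0.63 in KO 1 and 2.42 in KO 2 against WT. SLC7A11 differed by 1.93 between the clones, with -0.86 in KO 1 and 1.07 in KO 2 against WT. HK2 differed by 1.40 between the clones, with -0.45 in KO 1 and 0.96 in KO 2 against WT. OSGIN1 differed by 1.48 between the clones, with -0.41 in KO 1 and 1.06 in KO 2 against WT. PLXNA2 differed by 4.46 between the clones, with -1.37 in KO 1 and 3.09 in KO 2 against WT. UNC5C differed by 3.53 between the clones, with -2.22 in KO 1 and 1.31 in KO 2 against WT. PDGFRA differed by 5.00 between the clones, with -1.47 in KO 1 and 3.54 in KO 2 against WT. GPRIN3 differed by 5.64 between the clones, with -2.91 in KO 1 and 2.73 in KO 2 against WT.

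Lower in KO 2 and higher in KO 1 than in WT were 10 genes. GPC4 differed by -4.69 between the clones, with 2.02 in KO 1 and -2.67 in KO 2 against WT. MEOX1 differed by -2.58 between the clones, with 1.34 in KO 1 and -1.24 in KO 2 against WT. WNT5B differed by -1.89 between the clones, with 0.97 in KO 1 and -0.93 in KO 2 against WT. STAT3 differed by -0.45 between the clones, with 0.24 in KO 1 and -0.21 in KO 2 against WT. COL9A3 differed by -0.85 between the clones, with 0.32 in KO 1 and -0.54 in KO 2 against WT. TPM1 differed by -0.87 between the clones, with 0.19 in KO 1 and -0.68 in KO 2 against WT. MYC differed by -0.61 between the clones, with 0.19 in KO 1 and -0.42 in KO 2 against WT. HSD17B7 differed by -0.69 between the clones, with 0.37 in KO 1 and -0.32 in KO 2 against WT. CA12 differed by -1.02 between the clones, with 0.57 in KO 1 and -0.45 in KO 2 against WT. PLAGL1 differed by -1.21 between the clones, with 0.26 in KO 1 and -0.96 in KO 2 against WT.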

How the results depend on the processing

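Genes that differed between the clones numbered 6100, and between 5005 (without KO 2 replicate 2) and 6609 (without CRISPR Control replicate 1) when 1 library was left out. The other fits gave 5512 of 12740 genes with a minimum mean of 50, 5990 of 35235 without a minimum, 7013 with the 6 knockout libraries alone, 6240 with edgeR and 6288 with DESeq2. The balance moved with scaling: 47.4% of called genes were higher in KO 2 with the size factors, 44.7% with quantile normalization and 65.5% with equal library totals, where 2045 genes were lower and the median of all genes was 0.09. Under a minimum difference of 1 on the log2 scale the count was 1319, 1124 higher and 195 lower, with 7 MHC class I genes higher, 0 DNA replication genes lower and 7 mitosis genes lower. Medians of the HOX, Wnt, cholesterol, mesenchymal and nuclear respiratory chain lists changed sign with the scaling. The chromosome 1 block was absent (0 blocks) without a minimum and with equal library totals, blocks ranged from 0 to 1 when a library was left out, and 4 were found with windows of 15 genes and 10 with a share of 60%. Genes at the floor in KO 1 numbered 10 with a minimum mean of 50 in the other clone and up to 6 (without KO 1 replicate 1) when a library was left out. Of the comparisons of named genes with an alternative 3196 kept call and direction and 54 lost the call, in CALR, EPHA2, IFNGR2, STARD4, CCND3, GCLM, NDUFS4, ATP5F1D, HOXC13 and JAK1, and none reversed. Same-numbered libraries did not deviate together (r from -0.06 to -0.01 against -0.06 to 0.09 for other pairs), so the numbers do not pair them, and a replicate block gave 5975 genes, 2834 higher and 3141 lower. Counts of list members moved with the scaling by over 1.5 times in several lists, among them NRF2 targets (6 lower, 1 with equal library totals), mitochondrial transcripts (3 higher, 7 with quantile normalization), unfolded protein response (5 lower, 2 with either), HOX genes (6 lower, 3 with equal library totals) and TGF-beta and BMP genes (15 lower, 9 with equal library totals).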
